A study of Drosophila melanogaster with 57 samples.

Results

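The regions described here are the piRNA clusters of the euchromatin of chromosome arm 2L of Drosophila melanogaster. They are the rows of the authors' list of newly called clusters that lie on 2L and start below 22 Mb in the dm6 genome, and there were 467 of them among the 3356 regions of the whole list. The limit of 22 Mb sets them apart from the last stretch of the arm next to the centromere, where the list holds another 49 regions. The last region inside the limit was cluster_995 (chr2L:21996481-22000190) and the first beyond it cluster_996 (chr2L:22002295-22011929), so the stretch between them is short and the limit falls among closely spaced regions. The series holds small RNA libraries of 6 groups with 3 libraries each. Those groups were tkvM1-expressing ovaries, in which nanos-gal4 drives UASp-tkvM1 (a constitutively active BMP type I receptor) in germ cells; bam-mutant ovaries (bamΔ86); bgcn-mutant ovaries (bgcn20093 and bgcn20915); cultured GSCs (germline stem cells), sorted by GFP from a line labelled vasa-GFP;hs-bam;bamΔ86, which the study's methods write as vasa-GFP; hs-bam bamΔ86/bamΔ86; SCs, the GFP-negative somatic cells grown with those GSCs and labelled with the same stock; and wild-type ovaries (w1118). Ovary libraries also hold follicle cells and other somatic cells, and the study's text describes a low level of GSC contamination in the SC samples. The sources used here do not say which of these libraries the list was made from. The list gives a start and an end for each region and no count, depth, strand or value per library, so it allows no comparison or test between groups, and the read depth behind a region cannot be read from it. The study's supplement also gives piRNA start sites by group, of which a shortened copy was at hand, and these were not used here. The share intervals below are exact binomial (Clopper-Pearson) 95% intervals over regions, genes or gene pairs. They cover counting error only and take neighbouring items as independent, which they are not.

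piRNAs are small RNAs bound by the Argonaute proteins of the Piwi clade, and in the fly ovary they guide the silencing of transposable elements (TEs). Most derive from long precursor transcripts of loci called piRNA clusters, which are best known from TE-rich sequence near centromeres and telomeres, and others derive from the transcripts of protein-coding genes, often from their 3′ UTRs. Most piRNAs begin with a U, and the precursor is cut one piRNA after another, so that the base following a piRNA in the precursor is often a U as well.

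3 sets of sequence are shown. The first set gives a 25-mer that is frequent in each of 3 repetitive loci: the telomeric end of the arm, the histone gene array, and the regions over the known piRNA cluster 38C. The sequences are dm6 plus strand, and both strands were counted.
cluster_1, telomeric end, chr2L:76-100: atatgatcgcgtatgcgagagtagt
cluster_957, beside a histone pseudogene distal to the array, chr2L:21403809-21403833: cgattgatttcagaacaaattattt
cluster_876, 38C, in a 1360 element, chr2L:20149365-20149389: tgtcgaagtggacctgtaatatatg
The telomeric 25-mer was present in 34 copies in cluster_1 at a median spacing of 149 nt (141 to 168 nt), and in 163 copies in the assembly, the others being on 3L. The printed copy of the histone 25-mer is the first of 25 in the assembly, and all of them lay in cluster_957 and cluster_958, at a median spacing of 5045 nt. The 38C 25-mer was found 4 times in the regions over 38C and 8 times in the assembly.

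The second set shows regions that coincide with one insertion of the LTR retrotransposon 297. Capitals are bases inside the annotated insertion, and lower-case bases are the sequence beside it.
cluster_499, start, chr2L:10876588-10876612: atacatatatAGTGACGTATTTGGG
cluster_543, start, chr2L:12067373-12067397: tataatatatatAGTGACGTATTTG
cluster_681, start, chr2L:15586456-15586480: tacctatatAGTGACGTATTTGGGT
cluster_543, end, chr2L:12074362-12074386: TAAAACAACAATTTTACTatataca
Each of these regions began within 10 nt before the insertion and ended 5 nt after it. cluster_499 began 8 nt before, cluster_543 10 nt before and cluster_681 7 nt before, and their widths were 7012, 7010 and 7007 nt.

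The third set shows edges of wide regions, chosen by the bases at the edge. Capitals mark the pair of bases across the edge, the base just outside the region and the first (or last) base inside it. The first 3 were picked because they carry the pair AT, and the fourth because it does not. The 18 edges read were only part of the edges of the 10 widest regions and those over 38C, and 5 of the 18 carried AT.
cluster_3, start, chr2L:111369-111393: ctacgaaccATttggtcgaagacaa
cluster_358, end, chr2L:8071671-8071695: acacagctttaatcATtattccaat
cluster_964, end, chr2L:21667141-21667165: tacgagcaacgggtATaaccagtat
cluster_644, start, chr2L:14357651-14357675: tattaccgtGGagcagctggtgcgc

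The 467 regions were mostly a few kilobases wide. Their widths ran from 2009 to 118623 nt, with a median of 5929 nt (95% order-statistic interval 5357 to 6545 nt) and quartiles of 3669 and 10652 nt. The lower bound follows from the authors' minimum of 2000 nt. In all, 272 regions were at least 5000 nt wide, 125 at least 10000 nt and 39 at least 20000 nt, and the widest 46 held 34.6% of the bases. On 2L from 22 Mb on, the 49 regions had a median width of 17429 nt (11263 to 23827 nt), and all 2889 other regions of the list had a median of 6604 nt (6315 to 6923 nt). The intervals of the 2L euchromatin and of the proximal stretch of the arm did not overlap.

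Spacing was uneven. The 466 gaps between neighbouring regions ran from 284 to 450482 nt, with a median of 14756 nt (12182 to 18538 nt), quartiles of 4316 and 48448 nt, and a mean of 38237 nt with an SD of 56531 nt, so that the SD was 1.48 times the mean. Of these gaps 5 were under 1000 nt, although the study's methods describe the merging of neighbours within 1000 nt. 135 gaps (29.0%) were under 5000 nt, and 51 gaps of at least 100000 nt held 48.7% of all gap bases. On 2L from 22 Mb on, the median gap was 2750 nt (1933 to 4347 nt), 72.9% of the gaps were under 5000 nt and the longest was 22264 nt. When regions less than 5000 nt apart were joined, the 467 regions formed 332 runs, of which 247 were single regions and 85 held 2 to 6 regions each, 220 in all. The longest run spanned 202544 nt (chr2L:21393467-21596010) with 3 regions that covered 96.0% of it, and it held the histone array. The next spanned 146150 nt from the first base of the arm, of which cluster_1 and cluster_3 covered 98.7%. Runs of 6 regions occurred at chr2L:10193258-10257114, at chr2L:10295948-10364113 and at chr2L:10372797-10433685.

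**Figure D1:**
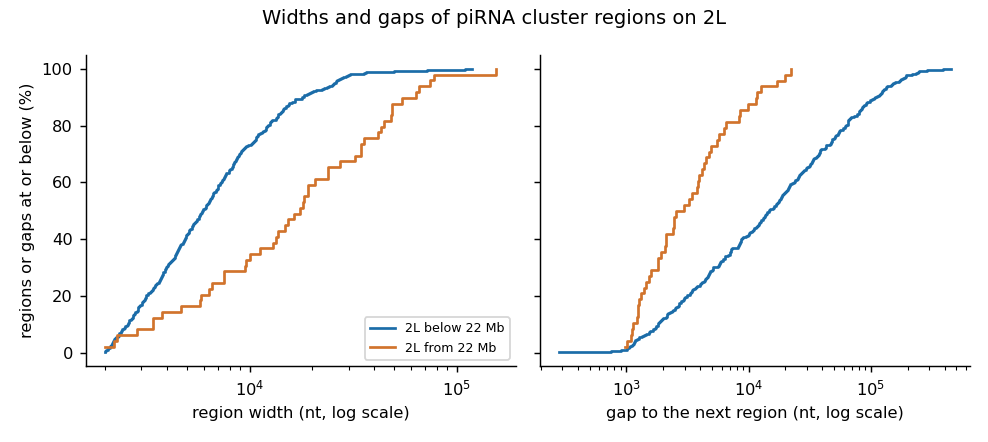
Cumulative share of regions by width (left) and of gaps by length (right), both in nt on a log scale, for 2L below 22 Mb (467 regions) and 2L from 22 Mb (49 regions). The euchromatic regions are narrower, with a median of 5929 nt against 17429 nt, and lie further apart, with a median gap of 14756 nt against 2750 nt.

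The regions covered 19.0% of 2L below 22 Mb, against 84.6% of 2L from 22 Mb on. In 22 segments of 1 Mb, counted from the telomeric end, coverage ran from 2.24% to 57.5% with a median of 16.0%. The lowest was segment 18, with 7 regions of at most 4765 nt, and the highest was segment 22, with 38 regions. Segment 1 was the next highest at 37.9%, beside 8.10% in segment 2. Coverage was above 25% in 6 segments and below 10% in 5. Over the distal 2 Mb it was 23%, against 18.6% in the rest of the euchromatin, a ratio of 1.24. With region midpoints counted in place of bases the ratio was 0.937, with an interval of 0.677 to 1.30 that includes 1. cluster_1 alone, in the distal window, reached from base 1 to base 109423.

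**Figure D2:**
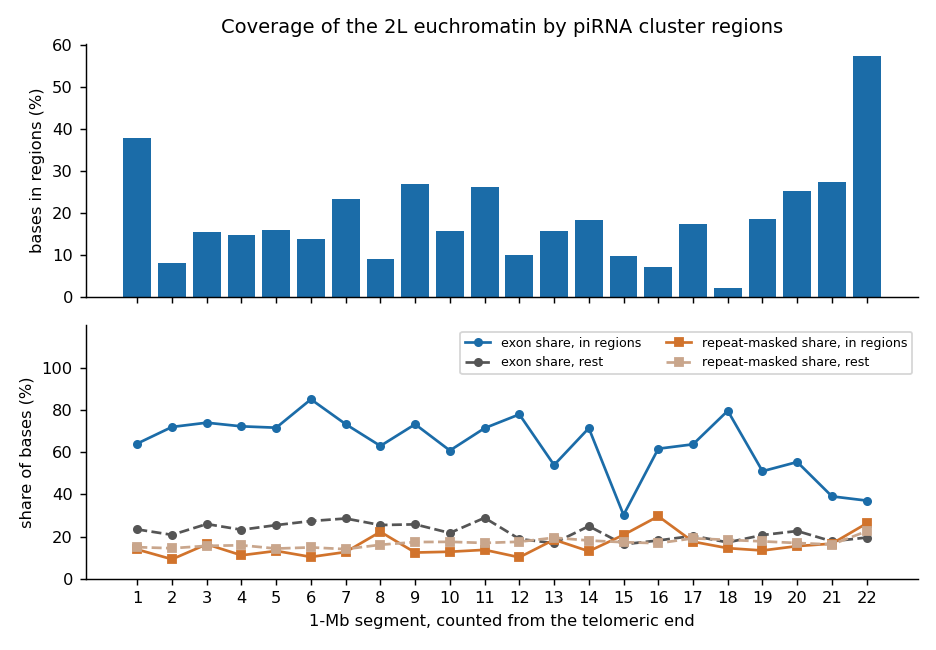
Upper panel, share of bases in regions (%) for each of the 22 segments of 1 Mb along the euchromatin of 2L, counted from the telomeric end. Lower panel, exon share and repeat-masked share (%) of the bases in regions and of the other bases of the same segment; the exon share is higher in regions in 22 of 22 segments, and the repeat-masked share is lower in regions in 16 of 22.

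The longest stretches without a region were poor in exons, and the genes named in them were picked after their content was seen. The longest, 450482 nt (chr2L:16917033-17367514), met 22 protein-coding genes, among them beat-IIIa, beat-IIIb and beat-IIIc, which belong to a family of immunoglobulin-domain proteins of axon guidance. The next, 391042 nt (chr2L:17520960-17912001), held CadN and CadN2, which encode neuronal cadherins, and Sytalpha, a synaptotagmin. The third, 289061 nt (chr2L:1321931-1610991), held haf, robo2, which encodes an axon guidance receptor, and Or22a, an odorant receptor gene. Exons made up 8.38%, 14.8% and 15.8% of the bases of these 3 gaps. Of the bases in regions 60.3% were exonic, against 17.5% of those in the 51 gaps of at least 100000 nt and 26.6% of those in shorter gaps.

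Regions lay over genes, and over exons more than introns. Exons made up 60.3% of region bases, against 22.2% of the other bases of the same arm segment (2.72 times), and the exon share was higher in regions in all 22 segments. Of all coding sequence of the segment 42.9% lay in regions (2.26 times the coverage of the segment), of 3′ UTR sequence 44.2% (2.33 times) and of 5′ UTR sequence 26.9% (1.41 times). Below 22 Mb, introns were covered at 11.1% (0.583 times) and intergenic sequence at 10.1% (0.534 times). Intergenic sequence free of TE insertions was covered at 7.54%. On 2L from 22 Mb on, coding sequence was covered at 78.4% and intergenic sequence at 89.7%, so between these classes the order ran the other way. Introns were the least covered there too, at 69.0% against 81.4% for exons, and 3′ UTR sequence stood at 88.5%. At the edges of the euchromatic regions the exon share changed over a short distance: it was 55.7% in the first 250 nt inside and 27.6% in the first 250 nt outside, and 36.3% between 750 and 1000 nt outside.

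**Figure D3:**
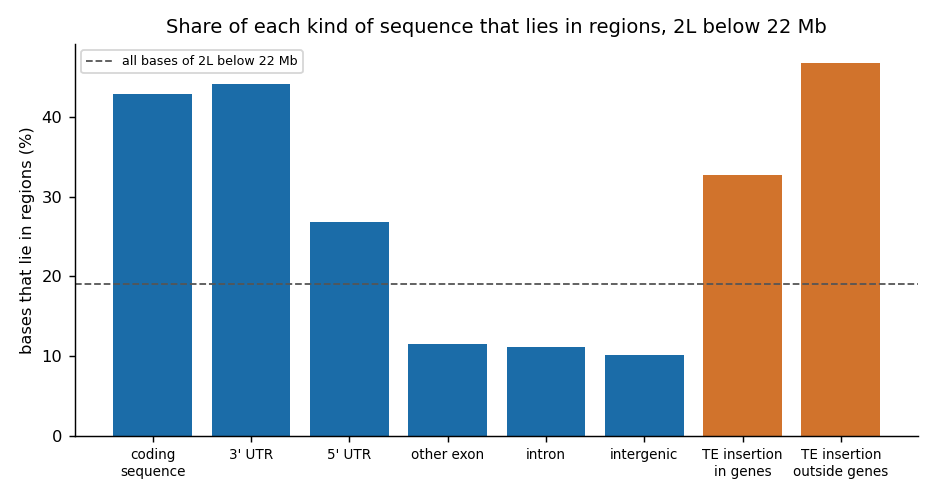
Share (%) of each kind of sequence of 2L below 22 Mb that lies in regions, with the share of all bases (19.0%) as a dashed line. Coding sequence, 3′ UTRs and TE insertions stand at 32.7% to 46.9%, 5′ UTRs at 26.9%, and introns, intergenic sequence and other exons (those of non-coding genes) at 10.1% to 11.6%.

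Single regions varied widely around this. The median region was 77.0% exon, 329 of 467 regions (70.4%, interval 66.1 to 74.6%) were more than 50% exon, and 55 held no exon base. 151 regions lay entirely in gene bodies. A region met a median of 2 genes: 23 regions (4.93%, 3.15 to 7.30%) met none, 130 met 1, 211 met 2 to 4 and 103 met 5 or more. 232 regions held at least 1 gene whole. Width did not sort regions by exon share, since exons made up between 59.3% and 63.7% of the bases in each of 4 equal classes of regions by width. TE insertions, in contrast, made up 15.3% of the bases of the narrowest class and 7.19% of those of the widest class.

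Of the 3549 annotated genes of the segment, TE insertions left out, 1507 (42.5%) had at least 1 base in a region, and 951 (26.8%) lay wholly inside 1 region. These are the shares against which the groups below are to be read. The genes counted in them include short annotated entries inside miRNA genes, such as those of 22 and 23 nt within mir-965. Such entries also count in the genes met per region. Among the 2620 protein-coding genes, 1265 (48.3%) were met and 731 (27.9%) lay wholly inside. The share wholly inside depended on gene length, at 33.7%, 36.5%, 34.0% and 28.2% in the first 4 of 5 equal classes of genes by length and 7.06% in the class of the longest genes. The longest gene wholly inside a region was Cda5, which encodes a chitin deacetylase-like protein, at 40003 nt in cluster_1. The next were elB (18922 nt, cluster_644), a zinc finger gene of tracheal and eye development, poe (17303 nt, cluster_358), a calmodulin-binding ubiquitin ligase gene, and CG9328 (16617 nt, cluster_910). Kr-h1, a juvenile hormone response gene, CG3036, FASN1, a fatty acid synthase gene, l(2)gl, a cell polarity gene, nompB, a gene of cilium assembly, and bib, a neurogenic gene, made up the rest of the 10 longest, between 10894 and 13896 nt.

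The genes of the piRNA pathway itself often lay inside regions. Of 12 pathway genes on the segment, 10 were met and 9 lay wholly inside (75%, interval 42.8 to 94.5%). piwi, the nuclear Argonaute of the pathway, lay in cluster_506 (chr2L:10977916-10989150), and aub, the Argonaute of cytoplasmic piRNA amplification, in the next region, cluster_507 (chr2L:10997336-11012207). zuc, the nuclease that cuts precursors into phased piRNAs, lay in cluster_537 together with 11 other whole genes. del, a partner of Rhino at germline clusters, and Nbr, an exonuclease that trims small RNA 3′ ends, lay in cluster_942. The Tudor-domain gene SoYb lay in cluster_443, squ in cluster_724, vls, a cofactor gene of arginine methylation, in cluster_874, and the gene of the heterochromatin protein HP1a in cluster_368. The RNA helicase gene vas was covered at 51.2% by cluster_666 and cluster_668. daed and papi, both encoding mitochondrial proteins of piRNA biogenesis, were not met. The regions over pathway genes were mostly exon (52.4% of cluster_443 to 90.3% of cluster_666), and that over zuc had 40.3% of its positions in multi-copy 25-mers.

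Genes of the germline stem cell and its niche were met, but 1 of them lay inside a region whole. Of 12 such genes, 8 had a base in a region and 1 lay wholly inside (8.33%, interval 0.211 to 38.5%, which includes 26.8%). That one was tj, a transcription factor gene of the somatic gonad whose 3′ UTR is a known source of piRNAs, in cluster_841 (chr2L:19455946-19470112). Lam (lamin) was covered at 98.6%, smo, the transducer of Hedgehog signals, at 97.4% and brat, a translational repressor gene, at 83.4%. chinmo was covered at 24.6%, Mad, the BMP effector, at 23.6% and vkg, a collagen IV gene, at 21.2%. tkv, the BMP type I receptor gene from which the tkvM1 transgene derives, was covered at 5.10%, by cluster_233 at its 3′ end. dpp, the BMP ligand, wg, esg and chic (profilin) had no base in a region. CG10462 and CG15628 of this arm are named by the study, as is tj, for their 3′ UTR piRNAs. CG10462 lay wholly in cluster_861, and CG15628 was covered at 31.8% by cluster_206. These lists are short, their genes differ in length (median 2929 nt for pathway genes and 11348 nt for niche genes), and the part of length in the difference was not tested.

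Other families fell on both sides of the background of 26.8% wholly inside. All 112 histone genes lay in regions. Of cytosolic ribosomal protein genes 12 of 17 lay wholly inside (70.6%, 44.0 to 89.7%), of mitochondrial ribosomal protein genes 8 of 12 (66.7%, 34.9 to 90.1%), of snoRNA genes 35 of 40 (87.5%, 73.2 to 95.8%) and of snRNA genes 13 of 16 (81.3%, 54.4 to 96.0%). The 35 snoRNA genes came from 13 regions, so they are not 35 separate loci. miRNA genes stood at 20 of 55 (36.4%, 23.8 to 50.4%) and tRNA genes at 10 of 41 (24.4%, 12.4 to 40.3%). Chemoreceptor genes stood at 4 of 30 (13.3%, 3.76 to 30.7%) and Cyp genes, which encode cytochrome P450 enzymes, at 1 of 14 (7.14%, 0.181 to 33.9%), with 5 of 14 Cyp genes met (35.7%). The intervals of these last 4 groups include 26.8%. Long non-coding RNA genes stood below it, at 31 of 510 (6.08%, 4.17 to 8.52%).

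**Figure D4:**
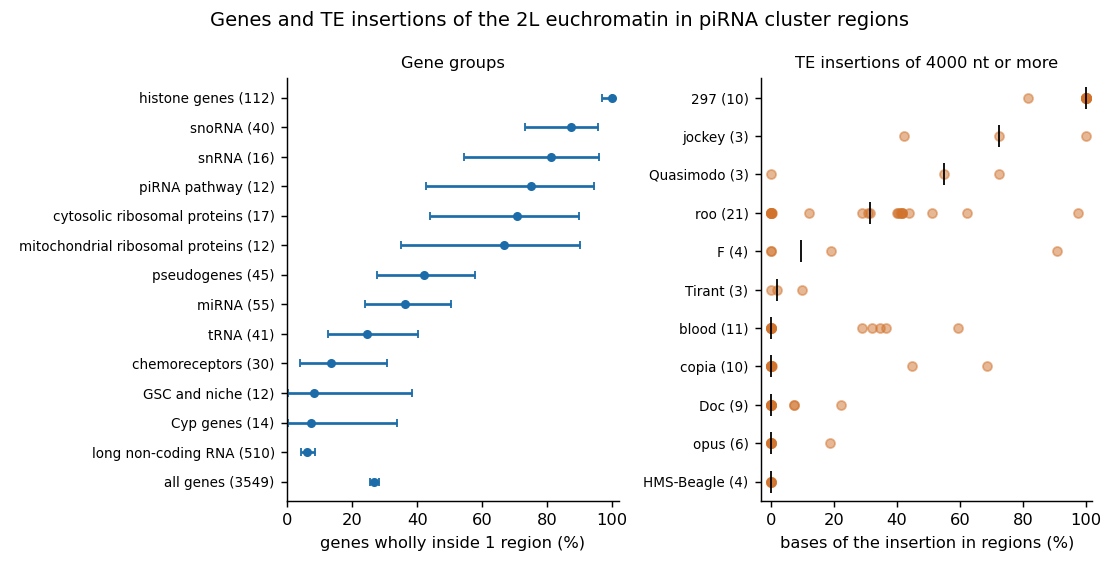
Left, share (%) of the genes of each group that lies wholly inside 1 region, with exact 95% binomial intervals and the number of genes in brackets; all genes stand at 26.8%. Right, share (%) of the bases of each TE insertion of 4000 nt or more that lies in regions, by family, with 1 point for each insertion and the median as a black line; 9 of 10 insertions of 297 stand above 90%, against 1 of 21 of roo.

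The 3′ ends of protein-coding genes were covered more often than their 5′ ends. The last base of the gene lay in a region for 42.2% of the 2620 genes (40.3 to 44.1%), and the first base for 33.7% (31.9 to 35.5%). Only the last base was covered in 317 genes and only the first in 94, while both were covered in 789 and neither in 1420. Coverage also differed with the arrangement of neighbours. Among all 2438 junctions of neighbouring protein-coding genes, taken at the midpoint between the facing ends, 37.6% lay in a region. Convergent pairs, whose 3′ ends face each other, were covered at 358 of 667 (53.7%, 49.8 to 57.5%), divergent pairs at 258 of 671 (38.5%, 34.8 to 42.2%) and tandem pairs at 301 of 1100 (27.4%, 24.7 to 30.1%). Convergent pairs also lay closer together, with a median distance of 52 nt against 395 nt for divergent and 554 nt for tandem pairs. Among pairs that did not overlap and lay up to 1000 nt apart, the shares were 61.2%, 51.8% and 34.8%, and beyond 1000 nt 14.8%, 9.39% and 15.9%. Without the histone genes the overall shares were 50.5%, 34.2% and 25.6%.

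The answer on repeats depended on how repeats were measured. Bases that the reference masks as repeats made up 16.2% of region bases, against 16.8% of the other bases of the segment, a ratio of 0.963, and the masked share was lower in regions in 16 of the 22 segments. Annotated TE insertions made up 8.92% of region bases against 3.25% of other bases (2.74 times), and were the higher in regions in 19 of 22 segments. Masked bases outside TE insertions made up 10.6% against 14.7% (0.720 times). The mask leaves out part of the annotated TE sequence. For example, cluster_158 was 99.9% TE and 10.5% masked, whereas cluster_681 was 99.8% TE and 99.0% masked. Positions at which a 25-mer occurs more than once in the assembled chromosomes made up 11.3% of region positions against 4.41% of the others (2.55 times). The TE share was highest in segments 21 and 22 (13.3% and 18.3%, at most 5.82% elsewhere), which were covered at 27.4% and 57.5%. In regions and outside them it was 24.5% and 9.06% in segment 21, and 21.4% and 14.2% in segment 22. The pooled TE ratio of 2.74 does not separate position along the arm from differences within segments. It was not computed for a limit of 20 Mb. On 2L from 22 Mb on, the masked share was 39.0% in regions and 37.6% outside them, the share of TE insertions 19.1% and 27.0%, and that of multi-copy 25-mers 56.3% and 41.1%.

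TE insertions and multi-copy 25-mers were concentrated in a minority of the regions, while masked bases were spread more widely. The median region was 11.4% masked (quartiles 7.59% and 18.3%), 29 regions were more than 50% masked, 335 regions (71.7%, 67.4 to 75.8%) held no TE base and 44 were more than 50% TE. By multi-copy 25-mers the split was sharper, with 48 regions above 50% and 330 below 1%. The highest masked shares among regions of at least 5000 nt were 99.0% in cluster_681, 98.9% in cluster_499, 98.5% in cluster_599, which lies in a Quasimodo element in an intron of CG42784, 98.1% in cluster_543 and 96.8% in cluster_392, which covers a 297 element in Sema1a, a semaphorin gene. The lowest were 1.29% in cluster_310, in uif, which encodes a transmembrane protein, 1.67% in cluster_197 and 2.39% in cluster_199, both in dpy, which encodes a giant cuticle-anchoring protein, 2.32% in cluster_60 and 2.65% in cluster_303. These regions were 86.6% to 96.2% exon.

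The 23 regions that met no gene were of the repetitive kind. They held 123084 nt, had a median width of 4145 nt (2024 to 15509 nt), and were 55.1% masked and 74.8% TE. A TE base was present in 20 of them, and 18 were more than 50% TE. Besides cluster_499, cluster_543, cluster_681 and cluster_704, which lie on 297, they included cluster_153 on mdg1 (97.1% TE), cluster_47 and cluster_409 on roo, cluster_776 on pogo (99.3% TE), and cluster_877, cluster_881 and cluster_882 of 38C. cluster_66, cluster_245 and cluster_657 met neither a gene nor a TE insertion.

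Families of TEs differed in how much of them lay in regions. Of 680 insertions from 83 families, 409 (60.1%) were met and 347 (51.0%) lay wholly inside, and 10 families held 64.4% of the TE bases in regions. 297 led them with 98.0% of its 69063 nt in regions (11 of 11 insertions met, 10 whole). The DNA transposon 1360 was covered at 93.1% and mdg1 at 84.5%. INE-1, the most numerous family with 320 insertions of a median 117 nt, was covered at 66.7%, and the LINE jockey at 69.3%. roo, with the most bases on the segment (188151 nt), was covered at 27.1%, and blood at 17.4%, Doc at 14.7%, copia at 13.7% and opus at 3.16%. Among the 36 families with at least 5000 nt on the segment, 5 were covered above 90% and 12 below 20%. The authors had mapped reads to TE sequences first, before the scan of the genome for regions, and how many reads of each family were left for that scan is unknown.

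Long insertions of 297, roo and blood were covered in different places. All 10 insertions of 297 of at least 4000 nt were covered, 9 of them over more than 90% of their length and the other, at chr2L:21730008-21737572, at 81.5%. They included insertions inside Syt1 (cluster_127), Snoo (cluster_351), Sema1a (cluster_392) and brat (cluster_828). In contrast, 6 of 21 long roo insertions had no base in a region, and the median coverage was 31.4%. With each roo copy cut into 10 equal parts in its own direction, the first 5 parts were covered at 4.76% to 14.1% on average and the last 4 at 51.7% to 61.9%; in each of the last 3 parts the same number, 13 of 21 insertions, was more than 50% covered. Of the 11 long blood insertions 6 had no base in a region, and coverage over all 11 averaged 17.1% to 42.8% in the first 6 parts and was 0 in the last 4. Of the long insertions of copia, Doc and opus, 7 of 10, 6 of 9 and 5 of 6 had no base in a region. Copies of a family can share sequence, so that a read may match several of them; how alike the copies are was not measured by family.

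The known cluster 38C lay at 63.4% in 4 regions. cluster_876 (chr2L:20087625-20159150, 71526 nt) reached into it from the distal side, with 10892 nt in 38C. The whole of cluster_876, most of it outside 38C, was 27.4% TE and 18.3% exon. It held 8 whole genes, among them mRpS18B and Taf13. cluster_877 (15509 nt) was 91.5% TE with 18 insertions, cluster_881 (14497 nt) 76.6% TE and cluster_882 (10432 nt) 42.4% TE, and none of the last 3 met a gene. Fragments of 1360, hopper and hopper2 were present in all 3.

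The histone gene array was the widest locus. Its 111 genes (23 His1, 20 His2A, 23 His2B, 23 His3 and 22 His4 genes; chr2L:21416953-21541681) lay wholly inside cluster_957, with 22 of them, and cluster_958, with 89. The other histone gene of the segment, His3.3A, lay in cluster_219. Both array regions together held 168131 nt, 4.02% of all region bases, and were 89.4% multi-copy by 25-mers and 24.7% TE. Reads of up to 25 nt that lie in a multi-copy 25-mer cannot be assigned to 1 copy, whereas longer reads may be. Multi-mapped reads were used to find regions. At the telomeric end, cluster_1 (109423 nt) was 17.9% masked, 13.2% multi-copy and 6.21% TE, met 17 genes and held 16 of them whole, among them l(2)gl, Cda5, Nhe1 and dbr. Of the other regions among the 10 widest, cluster_5 (36421 nt; kis, spen, mRpL10) was 88.3% exon and cluster_358 (35819 nt; poe, RpL36A, Cka) 89.8% exon with almost no TE (0.106%), whereas cluster_644 (56368 nt; elB, ppk, Rab14) was 24.2% exon and 0.185% TE. cluster_964 (30605 nt; Ac3, Cul2) was 34.0% TE.

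The base composition of region edges differed from that of the arm. Of the 466 regions that do not begin at the first base of the chromosome, 203 began with T on the plus strand (43.6%, 39.0 to 48.2%), against 29.0% of all bases of the segment. A was the last base in 213 of 467 (45.6%, 41.0 to 50.3%), against 29.0%. An A at the last base is a T at the first base read on the other strand. The base just outside was also uneven, a measure chosen after its values were seen: A stood just before the start in 42.1% (37.5 to 46.7%) and T just after the end in 41.5% (37.0 to 46.2%). Across the start, the pair AT was present in 91 of 466 regions (19.5%, 16.0 to 23.4%), against 8.14% of all positions of the segment, and neither base in 33.9% against 50.1%. Across the end, the pair AT was present in 82 of 467 (17.6%, 14.2 to 21.3%). Both bases of the pair were frequent at the edges singly, and whether the pair exceeds what the single shares give was not tested. In the other 2889 regions of the list, T began 43.2% and A ended 43.0%. The printed edges of cluster_3, cluster_358 and cluster_964 carry this pair, and that of cluster_644 does not.

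**Figure D5:**
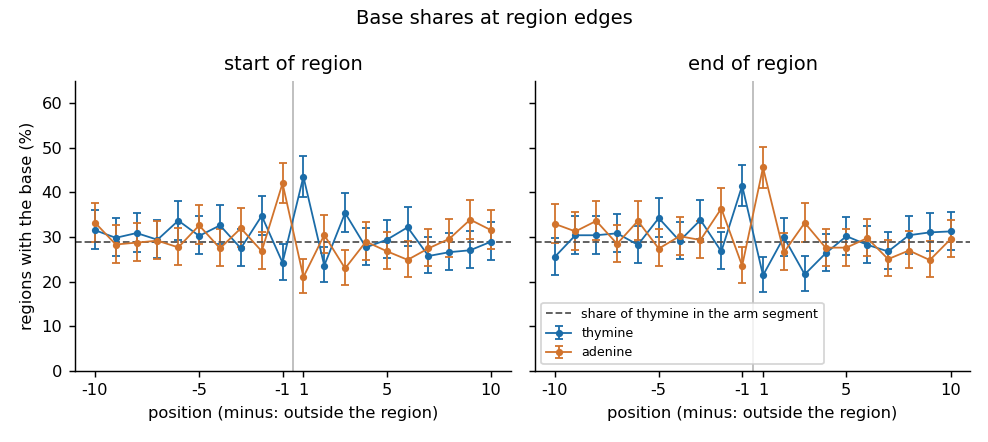
Share (%) of the 2L regions below 22 Mb with thymine or adenine at each of 10 positions outside (minus) and 10 inside the start (left) and the end (right), with exact 95% binomial intervals; the dashed line is the share of thymine in the arm segment (29.0%). Thymine at the first base (43.6%) and adenine at the last base (45.6%) stand above it, as do adenine just before the start and thymine just after the end.

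The regions carry list numbers between 1 and 995 in order along the arm, and 467 of those numbers (46.9%) are in the list, against 62.0% of the numbers 996 to 1074 on 2L from 22 Mb on. What the absent numbers stood for is not stated in the sources used here.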

How the data were processed

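Small RNAs were sequenced from 18 libraries, which make up 30 samples of the series. Each ovary library has a further sample whose title marks a second lane, and the GSC and SC libraries have none. Per the study's methods, the authors mapped reads to TE sequences with Bowtie2 and the remainder to the genome with Bowtie, keeping multi-mapped reads, and scanned reads of 23 to 35 nt. Windows within 250 nt were merged, those with at least 3 unique reads per kb were kept, neighbours within 1000 nt were merged, and regions over 2000 nt were deposited as coordinates (dm6), with no counts. The mRNA libraries were not used.

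Starts were counted from 1. Genes and TE insertions came from Ensembl release 115 and masked sequence from the RefSeq assembly of the same release 6 coordinates (8 chromosomes). A base with several uses was called coding, then 3′ UTR, 5′ UTR, other exon and intron; overlap counted from 1 base. Named regions were the 10 widest, those over 38C (bounds as the study uses them), the first and last, and the 5 most and 5 least masked; printed 25-mers were the most frequent of each locus among those absent from 2R; regions on 297, without a gene, in long runs or beside long gaps were named after their values were seen. Members and lists were chosen with earlier results of these data known. The functions were checked on simulated intervals (Python 3.11.15, NumPy 2.4.6, SciPy 1.17.1, matplotlib 3.10.9).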

Additional observations from a re-analysis of the deposited data

How the results depend on the processing

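No paired analysis was possible because the list holds no values per library and no result comes from a test. Of 42 alternatives, 6 were chosen after seeing the data. In all, 10 left the value within its interval (or a count within 1.5 times), 29 moved it and 3 turned its direction. The cause was not tested. Unlike the intervals above, those of coverage and of the ratios of bases took single bases as independent units. They were therefore very narrow (18.99 to 19.02% for coverage). Even a small change, such as 0.963 to 0.972 for the repeat ratio, counted as moved. The ratio of repeat share turned from 0.963 to 2.55 with multi-copy 25-mers and to 2.74 with TE insertions. That of distal coverage turned from 1.24 to 0.937 with midpoints, with an interval of 0.677 to 1.30 that includes 1. With regions of at least 5000 nt, there were 272 regions, a median gap of 22112 nt, 16.0% coverage and a repeat ratio of 0.918. With regions of at least 10000 nt, there were 125 regions, 3 of them without a gene, a median gap of 49786 nt, 11.3% coverage, and ratios of 1.33 (distal), 0.846 (repeat), 1.79 (3′ UTR) and 0.530 (intron). With a limit of 20 Mb, coverage was 16.7% and the ratios were 0.864 (repeat) and 2.52 (3′ UTR). Without the 10 widest regions, coverage was 16.4% and the repeat ratio 0.905. Without the 2 histone array regions, coverage was 18.4% and the ratios were 0.915 (repeat), 2.38 (3′ UTR) and 0.602 (intron). Merging within 5000 nt gave a median width of 7116 nt, and the distal 1 Mb alone a ratio of 2.10. The repeat ratio was 0.972 without the flanks of 1000 nt and 0.720 for masked bases outside TE insertions. With 1 transcript a gene, the ratios were 2.44 (3′ UTR) and 0.593 (intron). Regions without a gene numbered 55 by exons and 41 when 50% of the region had to lie in genes. T at the first base and A at the last base stayed within their intervals under all 4 alternatives run.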

Other observations

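Pseudogenes and antisense RNA genes, which the text above leaves out, lay wholly inside regions at 19 of 45 (42.2%, 27.7 to 57.8%) and 28 of 92 (30.4%, 21.3 to 40.9%), beside 26.8% of all genes of the segment. The list gives no strand, so a region over an antisense gene and its partner does not say which of them the reads came from.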
